A study of Mus musculus with 7 samples.

Results

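The nuclear genes of the mitochondrial respiratory chain and ATP synthase were compared between Trpm6-deficient and control mouse livers. Members were the probe sets whose only gene symbol begins with Nduf (a, b, c, s or v), Uqcr, Sdh (a to d), Cox (4 to 8) or Atp5, with the brightest probe set taken for each gene. This gave 89 genes of 19938 with such a probe set. Of these, 35 were assigned by symbol to complex I, 4 to complex II, 8 to complex III, 16 to complex IV and 17 to complex V, and 9 encode assembly factors or relatives of subunits (Ndufaf1 to Ndufaf7, Ndufa4l2 and Cox7a2l). Cox7c, Ndufb4 and Ndufb4b were left out because their probe sets carry the symbol of a second gene.

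Liver RNA was hybridised to Affymetrix Mouse Gene 1.0 ST arrays, with 1 array for each of 7 C57BL/6 males. The 4 control mice were Trpm6 fl/+, with 1 floxed allele and no Cre, and were 12 weeks (controls 1 and 2) or 13 weeks old (controls 3 and 4). The 3 Trpm6-deficient littermates were Trpm6 Δ17/Δ17;Sox2-Cre and were 13, 12 and 13 weeks old in the order of their numbers. In these mice exon 17 is deleted, which shifts the reading frame, and Cre under the Sox2 promoter acts in the epiblast, so that Trpm6 is lost from the tissues of the animal and kept in extraembryonic cells. The Sox2-Cre transgene is carried by the Trpm6-deficient mice and not by the controls, so its own effect and that of the deletion cannot be told apart. TRPM6 is a channel kinase needed for Mg2+ uptake, and the study asked, among other things, how the lack of Mg2+ alters energy metabolism. The targeted gene itself, on the log2 scale, ranged from 5.50 to 5.53 over the controls and from 5.37 to 5.50 over the mutants, which is under the array medians of 6.43 to 6.48, and whether its probe set reads the deleted exon was not examined.

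The respiratory chain passes electrons from NADH (complex I) or succinate (complex II) to ubiquinone, on to cytochrome c (complex III) and then to oxygen (complex IV). Complexes I, III and IV pump protons across the inner mitochondrial membrane, and ATP synthase (complex V) uses their return to make ATP, which serves in the cell mainly as its Mg2+ salt. Most subunits are encoded in the nucleus, and a small number, among them the central proton-pumping subunits of complex I and the catalytic core of complex IV, in mitochondrial DNA. In liver the chain oxidises the NADH and FADH2 of fatty acid oxidation and supports gluconeogenesis and urea synthesis.

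None of the 89 members was called by limma with an adjusted p of 0.1, the threshold of the study's methods, which called 0.129% of all 35556 probe sets (46 probe sets). The lowest adjusted p of a member was 0.274. A member is named nominally higher or lower here where its p before adjustment was 0.05 or below. By this measure 12 members were higher in Trpm6-deficient livers (13.5%, against 3.85% of all probe sets) and 3 were lower (3.37%, against 3.03%). By the same comparison without limma's sharing of variance between probe sets, 8 were nominally higher and 1 was nominally lower. Of all 35556 probe sets 1863 were nominally higher or lower by it, and no member was called after Benjamini-Hochberg adjustment. In 9 members every Trpm6-deficient liver lay above every control liver (10.1%, against 2.94%), and in 1 member every Trpm6-deficient liver lay below (1.12%, against 2.38%). Of the 89 members 76 had an average log2 signal of at least 8, and probe sets this bright with 1 gene symbol had larger shares, of 6.92% nominally higher, 6.39% nominally lower, 5.45% with all Trpm6-deficient livers above and 5.20% with all below. The 76 bright members had 13.2%, 3.95%, 10.5% and 1.32% in the same order.

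The differences were small. The median log2 change over the 89 members was 0.05, beside 0.00 over all probe sets, and 54 of the 89 changes (60.7%) were above 0, against 50.3% of all probe sets. The median was 0.09 for complex I (25 of 35 above 0), 0.05 for complex II (3 of 4), -0.03 for complex III (4 of 8), 0.01 for complex IV (9 of 16), 0.04 for complex V (10 of 17) and -0.06 for the factors (3 of 9). With 4 against 3 livers the standard error of a member's log2 change had a median of 0.10 and ranged from 0.04 to 0.43. For 72 of the 89 members the 95% interval of the change lay within 1.5-fold in either direction. For the other 17, a change of 1.5-fold remains within the interval.

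**Figure D1:**
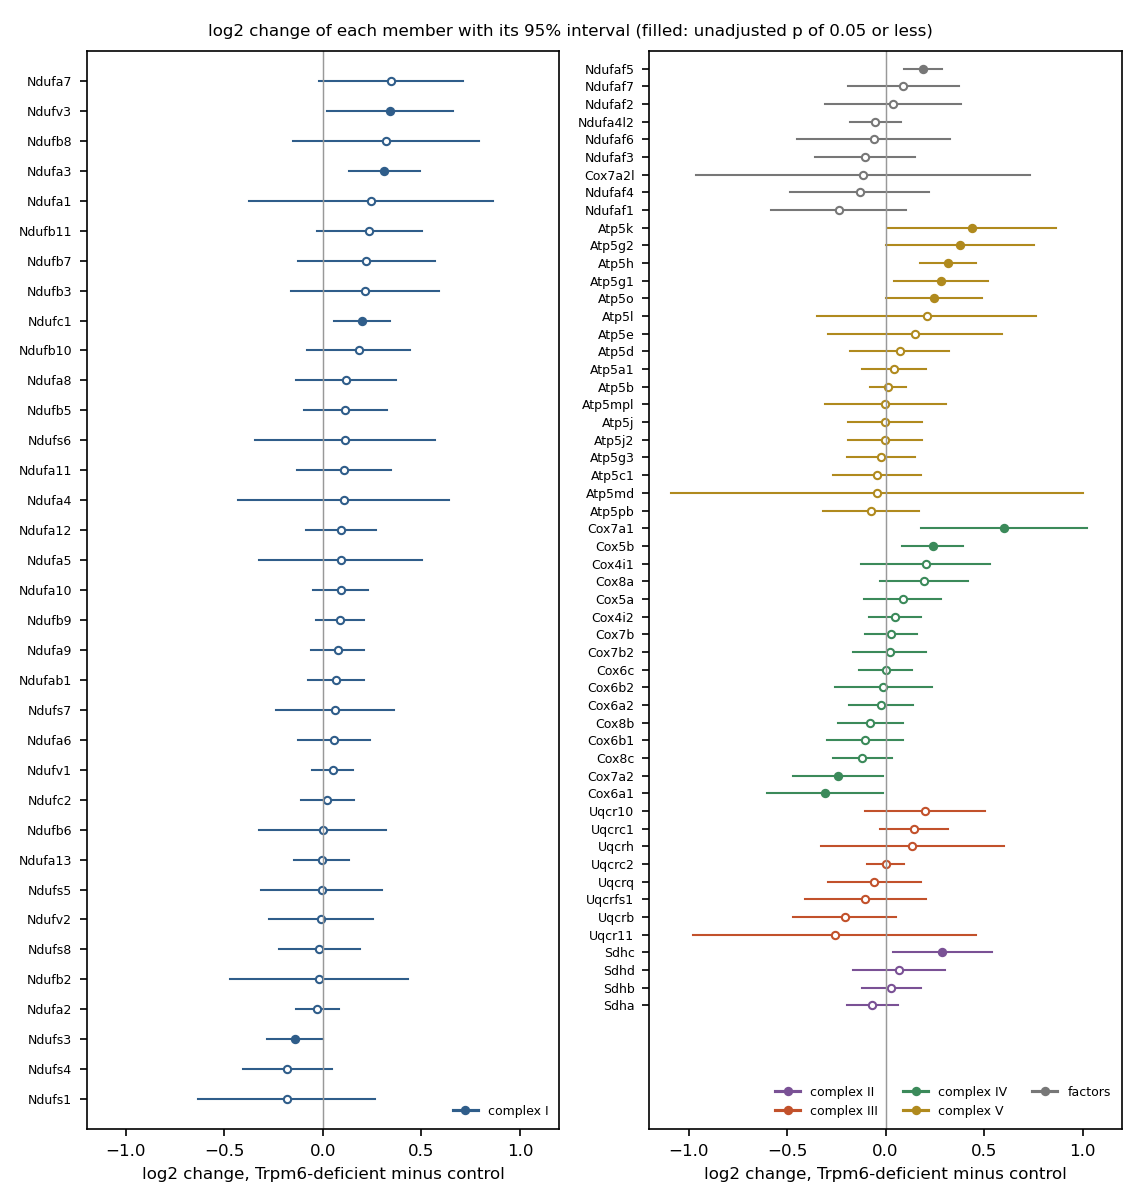
Log2 change (Trpm6-deficient minus control, x axis) of each of the 89 members with its 95% interval from limma, for complex I on the left and for complexes II to V and the factors on the right. Filled points mark the 15 nominally higher or lower members. Most points lie between -0.3 and 0.3, and Atp5md, Cox7a2l and Uqcr11 have the widest intervals.

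Complex V held 5 of the 12 nominally higher members. Atp5h, which encodes subunit d of the peripheral stalk that holds the catalytic head still, had log2 values of 11.90, 11.78, 11.83 and 11.86 in controls 1 to 4 and of 12.24, 12.18 and 12.06 in Trpm6-deficient 1 to 3. All Trpm6-deficient livers lay above all controls, with a gap of 0.16 between the groups. The log2 change was 0.32 (standard error, SE, of 0.06, adjusted p = 0.274 from limma), or 1.25-fold with a 95% interval of 1.13 to 1.38. The other 2 probe sets with this symbol gave log2 changes of 0.28 and 0.30, and whether the probe sets share signal was not examined.

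The membrane ring of ATP synthase that turns as protons pass is built of subunit c, which is made from 3 genes that yield the same mature protein. Atp5g1 had log2 values of 12.82, 12.92, 13.13 and 13.13 in the controls and of 13.21, 13.23 and 13.40 in the Trpm6-deficient livers, without overlap (log2 change 0.28, SE 0.10, adjusted p = 0.665). Atp5g2 had values of 11.41, 11.71, 11.92 and 12.03 in the controls and of 12.21, 12.00 and 12.22 in the Trpm6-deficient livers. Here Trpm6-deficient 2 lay just below control 4, and the log2 change was 0.38 (SE 0.16, adjusted p = 0.726). Atp5g3, the remaining c subunit gene, had values of 12.59, 12.48, 12.58 and 12.53 in the controls and of 12.67, 12.43 and 12.46 in the Trpm6-deficient livers. Its groups overlapped, with the highest and the lowest value both in Trpm6-deficient livers, and its log2 change was -0.03 (95% interval -0.20 to 0.15). Probe sets of near-identical gene copies can share signal, and Atp5g1 and Atp5g2 each have more than 1 probe set, whose log2 changes had the same sign within each gene.

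Atp5k encodes subunit e, which takes part in joining ATP synthase into dimers. Its log2 values were 8.29, 8.05, 8.50 and 8.46 in the controls and 9.0, 8.40 and 8.89 in the Trpm6-deficient livers, a log2 change of 0.44 (SE 0.18, adjusted p = 0.712). Trpm6-deficient 1 and 3 lay above all controls and Trpm6-deficient 2 among them. Atp5o encodes the subunit that ties the peripheral stalk to the catalytic head. Its 4 controls lay close together, at 11.41, 11.32, 11.38 and 11.40, and the Trpm6-deficient livers at 11.84, 11.41 and 11.62 (log2 change 0.25, SE 0.10, adjusted p = 0.722). Trpm6-deficient 2 equalled control 1, the highest control.

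None of the subunits of the catalytic head or of the central shaft was nominally higher or lower. Atp5a1, the alpha subunit, had a log2 change of 0.04 (95% interval -0.12 to 0.20). Atp5b, the beta subunit that carries the catalytic sites, lay at 13.52, 13.52, 13.50 and 13.52 in the controls and at 13.52, 13.52 and 13.54 in the Trpm6-deficient livers, with a log2 change of 0.01 and the narrowest interval of all members (-0.08 to 0.10). Atp5c1, the gamma subunit of the central shaft, had a log2 change of -0.04 (95% interval -0.27 to 0.18). Atp5d and Atp5e, the delta and epsilon subunits of the shaft, had log2 changes of 0.07 (95% interval -0.18 to 0.32) and 0.15 (95% interval -0.29 to 0.59). Atp5pb, the b subunit of the peripheral stalk, had the lowest log2 change of complex V, -0.07, with an interval of -0.32 to 0.17. The median of complex V, 0.04, therefore lies far below the values of its 5 nominally higher members, which ranged from 0.25 to 0.44.

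Complex IV, cytochrome c oxidase, held members at both ends of the range. Cox7a1, the subunit isoform of heart and skeletal muscle, had log2 values of 7.77, 7.58, 7.45 and 7.53 in the controls and of 8.38, 7.76 and 8.41 in the Trpm6-deficient livers. Trpm6-deficient 1 and 3 lay well above every control, and Trpm6-deficient 2 lay just below control 1. The log2 change of 0.60 (SE 0.18, adjusted p = 0.578), or 1.52-fold with an interval of 1.13 to 2.03, was the highest of all members. Cox7a2, the isoform of the same subunit in liver, had values of 11.44, 11.51, 11.58 and 11.31 in the controls and of 11.36, 11.24 and 11.06 in the Trpm6-deficient livers. The groups overlapped only through Trpm6-deficient 1 and control 4, and the log2 change was -0.24 (SE 0.10, adjusted p = 0.703). Levels of different probe sets cannot be set against each other, so these values do not give the proportion of the isoforms.

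Cox6a1, the liver isoform of another small complex IV subunit, was the 1 member in which all Trpm6-deficient livers lay below all controls. Its log2 values were 11.97, 12.21, 12.14 and 11.88 in the controls and 11.85, 11.87 and 11.51 in the Trpm6-deficient livers, with a gap of 0.01 between the groups. The log2 change was -0.31 (SE 0.12, adjusted p = 0.708), the lowest of all members. Cox6a2, the muscle isoform of that subunit, had a log2 change of -0.02, with control values from 6.70 to 6.96 and Trpm6-deficient values from 6.78 to 6.80.

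Among the subunits of complex IV used in all tissues, Cox5b, which binds zinc on the matrix side, had log2 values of 11.79, 11.83, 11.91 and 11.94 in the controls and of 12.19, 12.01 and 12.12 in the Trpm6-deficient livers. The groups did not overlap, and the log2 change was 0.24 (SE 0.06, adjusted p = 0.516). A second Cox5b probe set gave 0.28 (SE 0.05, adjusted p = 0.240), a lower p than that of the brightest one. Whether these probe sets share signal was not examined. Cox4i1, the regulatory subunit that binds ATP, had a log2 change of 0.20 (adjusted p = 0.851), with Trpm6-deficient 1 highest at 11.76 and the other Trpm6-deficient livers at 11.27 and 11.33 within the control range of 11.13 to 11.40. Cox5a had a log2 change of 0.09 (adjusted p = 0.883). Cox6c, the brightest member, lay at 13.50 to 13.68 in the controls and at 13.57 to 13.64 in the Trpm6-deficient livers.

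The remaining tissue-restricted isoforms of complex IV (Cox4i2, Cox6b2, Cox7b2, Cox8b and Cox8c) had log2 changes between -0.12 and 0.05. Their probe sets lay near or below the array medians in all livers, with Cox7b2, a testis isoform, the dimmest member at a mean of 4.78. Whether they are above background was not examined. Skeletal and heart muscle markers (6 of 6 measured) had a median log2 change of 0.02, with the mean of the list at 6.73 to 6.92 in the controls and 6.88 to 6.89 in the Trpm6-deficient livers, and none was nominally higher or lower. The mean of the adipocyte markers (5 of 6 measured) lay at 5.88 to 6.01 in the controls and 5.78 to 5.82 in the Trpm6-deficient livers, with Fabp4 at a log2 change of -0.42 and the other 4 between -0.10 and 0.01. Of the red blood cell markers 2 of 6 were measured, Alas2 with a log2 change of -1.66 and Slc4a1 with one of -0.01. The part of these markers in the member values was not tested.

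**Figure D2:**
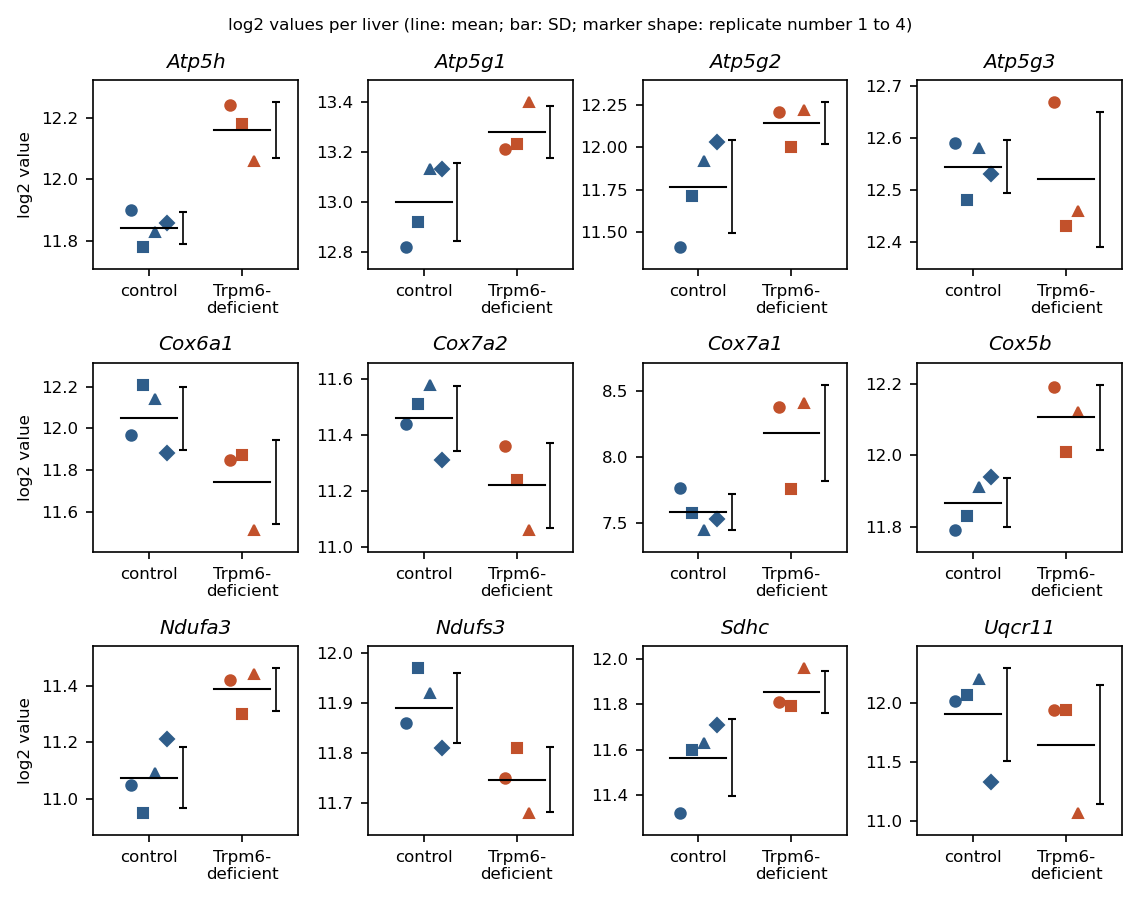
Log2 values of 12 members in each control (blue) and Trpm6-deficient (orange) liver, with the mean (line), the SD (bar) and 1 marker shape for each replicate number. Atp5h, Atp5g1, Cox5b, Ndufa3 and Sdhc are higher and Cox6a1 is lower without overlap, whereas Atp5g3 and Uqcr11 overlap widely. Each panel has its own y axis, which does not start at 0.

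Complex I, NADH dehydrogenase, had 4 members without overlap (11.4%, against 2.94% of all probe sets and 5.45% of bright ones). All were higher: Ndufa3, Ndufa7, Ndufa9 and Ndufc1. In Ndufa7 and Ndufa9 the gap between the groups was 0.01. The log2 change of Ndufa9 was 0.075 (SE 0.06, adjusted p = 0.857 from limma). Ndufa3, an accessory subunit of the membrane arm, had log2 values of 11.05, 10.95, 11.09 and 11.21 in the controls and of 11.42, 11.30 and 11.44 in the Trpm6-deficient livers (log2 change 0.31, SE 0.07, adjusted p = 0.429). Ndufc1, another accessory subunit, had values of 10.69, 10.59, 10.74 and 10.76 in the controls and of 10.88, 10.84 and 10.96 in the Trpm6-deficient livers (log2 change 0.20, SE 0.06, adjusted p = 0.597). In both genes the gap between the groups was under 0.1. Ndufa7 had the highest log2 change of complex I, 0.35, but its standard error was 0.15, since Trpm6-deficient 1 lay at 10.40 and the other Trpm6-deficient livers at 9.88 and 9.85, close to control 3 at 9.84. Ndufv3, an accessory subunit of the NADH-oxidising module, had a log2 change of 0.34 (SE 0.13, adjusted p = 0.699). Its values overlapped through control 4 at 9.64, while the other controls lay at 9.14 to 9.29 and the Trpm6-deficient livers at 9.58 to 9.81.

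The core subunits of complex I, which carry its redox centres, had log2 changes between -0.19 and 0.06. Ndufs3, a core subunit near the ubiquinone site, had log2 values of 11.86, 11.97, 11.92 and 11.81 in the controls and of 11.75, 11.81 and 11.68 in the Trpm6-deficient livers. Trpm6-deficient 2 equalled control 4, and the log2 change was -0.14 (SE 0.06, adjusted p = 0.721). Ndufs1, the largest iron-sulfur subunit, had the lowest log2 change of the complex, -0.19 (95% interval -0.64 to 0.27), with control 1 at 10.77 and the other livers from 9.98 to 10.37. Ndufv1, which binds FMN and accepts the electrons of NADH, had a log2 change of 0.05 (95% interval -0.06 to 0.15). The 6 core subunits measured (Ndufs1, Ndufs3, Ndufs7, Ndufs8, Ndufv1 and Ndufv2) had a median log2 change of -0.01 with 2 above 0, and the 29 other members of complex I a median of 0.10 with 23 above 0. This division was made after the values were seen, and its difference was not tested. Ndufa4 is counted here by its symbol, although its protein is now assigned to complex IV.

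Complex II, succinate dehydrogenase, belongs to both the tricarboxylic acid cycle and the chain. Sdhc, which anchors the enzyme in the membrane and binds its haem, had log2 values of 11.32, 11.60, 11.63 and 11.71 in the controls and of 11.81, 11.79 and 11.96 in the Trpm6-deficient livers, without overlap (log2 change 0.29, SE 0.10, adjusted p = 0.672). Sdhd, the other membrane anchor, had a log2 change of 0.07, with control 3 highest at 11.54. The catalytic subunits lay closer to 0. Sdha, which oxidises succinate, had a log2 change of -0.07 (95% interval -0.20 to 0.06), and Sdhb, the iron-sulfur subunit, had one of 0.03 (95% interval -0.12 to 0.18).

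In complex III, which passes electrons to cytochrome c, no member was nominally higher or lower. The highest log2 change was 0.20 for Uqcr10, a small supernumerary subunit (95% interval -0.11 to 0.50), and the lowest was -0.26 for Uqcr11, another small subunit (95% interval -0.98 to 0.46). Uqcr11 lay at 12.02, 12.07, 12.21 and 11.33 in the controls and at 11.94, 11.94 and 11.07 in the Trpm6-deficient livers. Control 4 and Trpm6-deficient 3 stood apart from the other 5 livers, which lay between 11.94 and 12.21. Uqcrc1, a core subunit, had a log2 change of 0.14 (adjusted p = 0.799), and Uqcrfs1, the Rieske iron-sulfur protein, had one of -0.10 (adjusted p = 0.912). Uqcrc2, the other core subunit, lay at 12.46 in all Trpm6-deficient livers and at 12.43 to 12.50 in the controls.

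Among the factors, Ndufaf5, which modifies a core subunit of complex I during its assembly, had log2 values of 6.25, 6.28, 6.28 and 6.27 in the controls and of 6.43, 6.50 and 6.45 in the Trpm6-deficient livers. The groups did not overlap, and the log2 change was 0.19 (SE 0.04, adjusted p = 0.371). These values lie close to the array medians, and whether the probe set is above background was not examined. The other 8 factors had log2 changes between -0.24 (Ndufaf1) and 0.09 (Ndufaf7), none of them nominally higher or lower. Cox7a2l, which takes part in forming supercomplexes of the chain, lay at 9.60 in control 1 and 9.63 in Trpm6-deficient 1 and between 8.42 and 8.80 in the other 5 livers.

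The mean of all members differed between the Trpm6-deficient livers themselves. Relative to the control mean, the mean log2 difference was 0.20 in Trpm6-deficient 1, 0.01 in Trpm6-deficient 2 and -0.02 in Trpm6-deficient 3. The controls lay at 0.04, -0.03, 0.03 and -0.04 (SD 0.04, n = 4). Trpm6-deficient 1 was thus above all controls, and the other Trpm6-deficient livers were within the control range. Without Trpm6-deficient 1 the median log2 change was 0.00 for all members, 0.03 for complex I and -0.04 for complex V. In that fit 7 of the 89 members were nominally higher and 1 nominally lower, beside 2811 of all 35556 probe sets in either direction.

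Trpm6-deficient 1 had the highest class mean of the 7 livers in complexes I, III, IV and V and in the factors. For complex I it lay at 0.23, with Trpm6-deficient 2 and 3 at 0.02 and 0.02 and the controls from -0.04 to 0.05. For complex V it lay at 0.29, with Trpm6-deficient 2 and 3 at 0.02 and 0.03 and the controls from -0.06 to 0.07. For complex IV it lay at 0.12 (others -0.04 to 0.03), and for complex III at 0.15, where Trpm6-deficient 3 was the lowest liver at -0.20. Complex II had another order, with the 3 Trpm6-deficient livers at 0.08, 0.08 and 0.07, at or below control 3 (0.08) and above the remaining controls (-0.10 to 0.03).

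**Figure D3:**
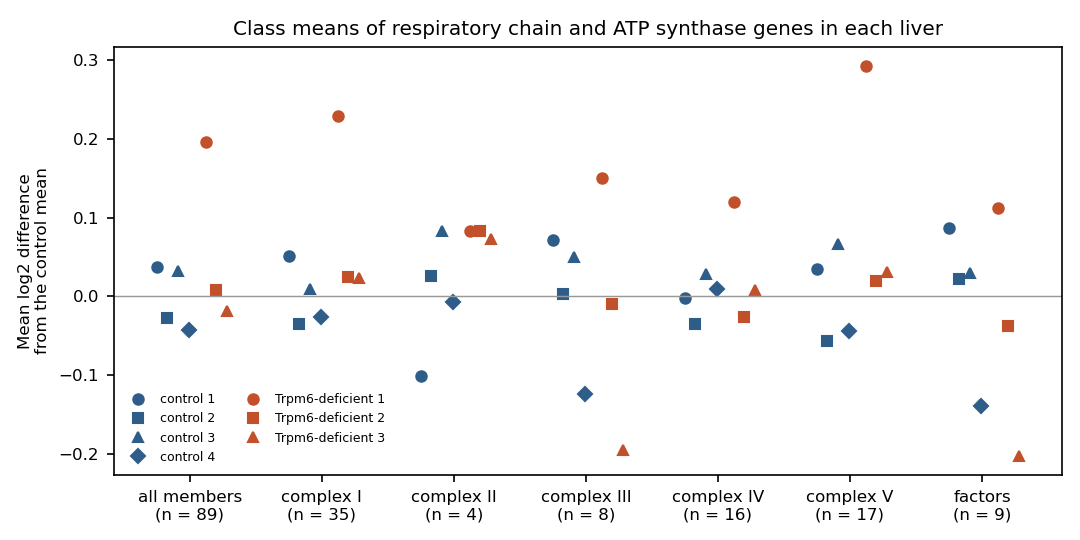
Mean log2 difference from the control mean (y axis) over all members and over each class (x axis, with the number of genes), for each of the 7 livers. Circles, squares, triangles and diamonds are replicate numbers 1 to 4, blue for control and orange for Trpm6-deficient. Trpm6-deficient 1 is the highest point for all members (0.20), complex I (0.23) and complex V (0.29).

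Counted gene by gene, the highest of the 7 values lay in Trpm6-deficient 1 for 42 of the 89 members (47.2%, against 13.3% of all probe sets with 1 symbol). The count was 21 of 35 in complex I, 9 of 17 in complex V, 4 of 8 in complex III, 4 of 16 in complex IV and 0 of 4 in complex II. Trpm6-deficient 1 lay above all 4 controls in 53 members (59.6%, against 17.5%). Trpm6-deficient 2 did so in 15 members (16.9%, against 16.9%), and Trpm6-deficient 3 in 24 (27.0%, against 23.0%). Among bright probe sets (1 gene symbol, average log2 signal at least 8) the shares for Trpm6-deficient 1 to 3 were 21.2%, 22.4% and 25.7%. Trpm6-deficient 3 lay below all controls in 25 members (28.1%, against 18.7%), which is close to the 27.5% of bright probe sets.

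The same liver stood high for another large class of genes. Cytosolic ribosomal proteins had their highest value in Trpm6-deficient 1 in 31 of the 50 genes with a single highest liver (62.0%), and their mean difference from the control mean was 0.29 there, -0.08 and 0.01 in Trpm6-deficient 2 and 3, and 0.11 in control 1. Mitochondrial ribosomal proteins did so in 26.5%, with mean differences of 0.09, 0.05 and -0.06 in Trpm6-deficient 1 to 3. Hepatocyte markers (8 of 10 measured) were similar in all livers, with list means of 13.68 to 13.77 in the controls and 13.71 to 13.78 in the Trpm6-deficient livers.

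**Figure D4:**
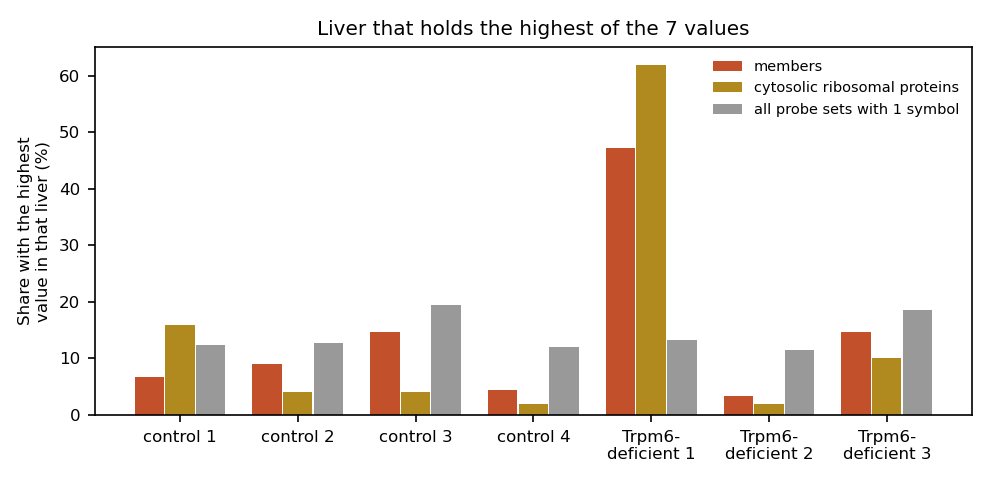
Share of genes (y axis, %) whose highest of the 7 values lies in each liver (x axis), for the members, for cytosolic ribosomal proteins and for all probe sets with 1 symbol. Trpm6-deficient 1 holds 47.2% of the members and 62.0% of the cytosolic ribosomal proteins, against 13.3% of all probe sets.

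Part of the variation joined a control to a Trpm6-deficient liver. In 20 members control 1 and Trpm6-deficient 1 both lay above the other 5 livers (22.5%, against 5.57% of probe sets with 1 symbol), and in 12 members control 3 and Trpm6-deficient 1 did so (13.5%, against 4.44%). In 18 members control 4 and Trpm6-deficient 3 both lay below the other 5 livers (20.2%, against 4.08%). The other pairs of the 12 possible gave at most 5 members in either direction. These pairs were singled out after the values were seen.

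Atp5md, a small membrane subunit of ATP synthase, showed the widest such spread, with log2 values of 12.69, 11.69, 11.64 and 11.52 in the controls and of 12.67, 11.71 and 11.14 in the Trpm6-deficient livers. Control 1 and Trpm6-deficient 1 were nearly equal and about 1 log2 unit above the others, so that the log2 change of -0.05 had an interval of -1.09 to 1.00. In Ndufa4 Trpm6-deficient 1 and control 1 were also the highest pair, at 11.73, 11.09, 11.38 and 11.37 in the controls and at 11.96, 11.27 and 11.26 in the Trpm6-deficient livers. Atp5l, another membrane subunit of ATP synthase, lay at 10.98 in control 1 and 11.30 in Trpm6-deficient 1 and between 10.34 and 10.62 in the others.

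Markers of some non-parenchymal cells were lowest in the same livers. The mean of the 6 Kupffer cell markers differed from the control mean by -0.59 in control 1 and -0.34 in Trpm6-deficient 1, and that of the 6 sinusoidal endothelial markers by -0.58 and -0.35. Trpm6-deficient 2 and 3 lay at -0.25 and -0.22 for the Kupffer cell markers and at 0.00 and -0.23 for the endothelial markers. Stellate cell and cholangiocyte markers lay at -0.09 and -0.01 in control 1 and at 0.04 and 0.03 in Trpm6-deficient 1. The list means ranged from 8.36 to 9.29 in the controls and from 8.62 to 8.73 in the Trpm6-deficient livers for Kupffer cells, and from 8.81 to 9.77 and 9.04 to 9.40 for endothelium. In whole liver RNA, fewer cells of a type and less RNA per cell cannot be told apart. The part of these markers in the member values was not tested. Without control 1 and Trpm6-deficient 1 together, the median log2 change of the members was 0.01. In that fit 4 of the 89 members were nominally higher and 2 nominally lower, beside 2680 of all 35556 probe sets in either direction.

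**Figure D5:**
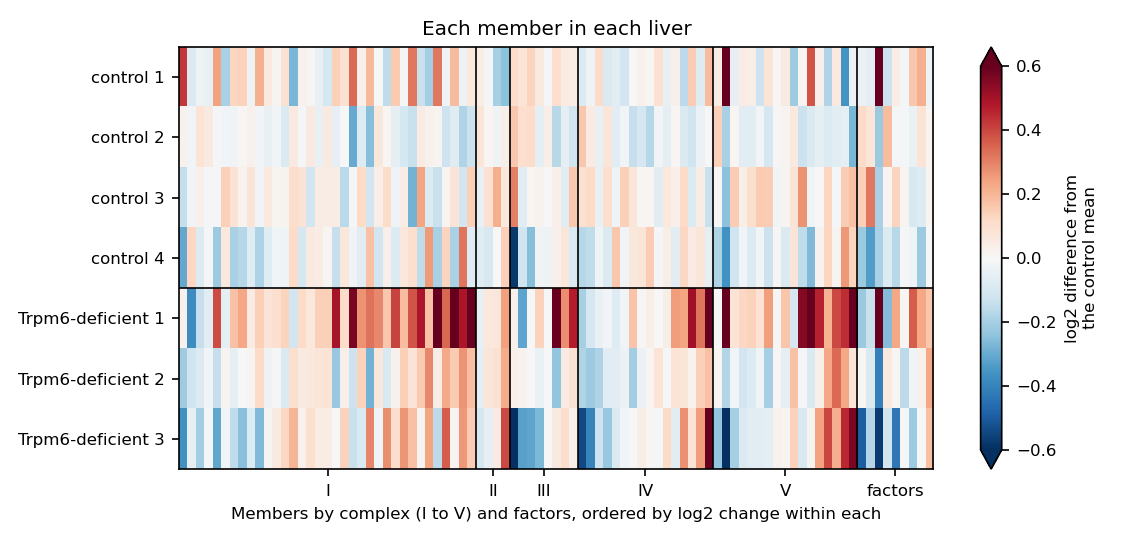
Log2 difference from the control mean (colour, from -0.6 in blue to 0.6 in red) of each of the 89 members (columns, by complex and ordered by log2 change within it) in each liver (rows). The red stretches of Trpm6-deficient 1 fill the right side of complexes I and V, and control 1 is red in part of the same columns.

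Genes that work beside the members were read against the same background, in which 3.85% of all probe sets and 6.92% of the bright ones were nominally higher, and 3.03% and 6.39% nominally lower. Cyc1, the cytochrome subunit of complex III, had a log2 change of -0.01, and Cycs, cytochrome c itself, one of -0.15 (SE 0.07, adjusted p = 0.770). Of the subunits encoded in mitochondrial DNA, ND3 (complex I) had a log2 change of -0.14 and COX2 (complex IV) one of 0.02, and the other 11 were not analysed here. Of 32 measured assembly factors outside the symbol rule, 1 was nominally higher (3.12%; Cox20, a chaperone of complex IV, 0.32) and none was lower, and the median was 0.02. Among 9 carriers and inner membrane proteins, 1 was higher (11.1%), Atpif1 (log2 change 0.27, SE 0.08, adjusted p = 0.583), whose protein inhibits the reverse reaction of ATP synthase. Among 12 outer membrane and import proteins 1 was higher (8.33%), Vdac2 (0.25). Of 74 mitochondrial ribosomal proteins 5 were higher (6.76%) and 1 was lower (1.35%), with a median of 0.00, and of 53 cytosolic ribosomal proteins 4 were higher (7.55%) and none lower, with a median of 0.08. Higher and lower are meant nominally here, and limma called none of these genes at an adjusted p of 0.1.

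The tricarboxylic acid cycle and pyruvate dehydrogenase supply the chain with NADH and succinate. Of 16 measured genes listed with them, 5 were nominally higher (31.2%; Idh2, Idh3g, Suclg2, Pdha1 and Dlat). Sucla2 was the 1 nominally lower gene (6.25%), and the median was 0.06. Idh2, the NADP-linked mitochondrial isocitrate dehydrogenase, lay at 11.26, 11.01, 10.97 and 11.02 in the controls and at 11.68, 11.66 and 11.63 in the Trpm6-deficient livers. The groups did not overlap, and the log2 change of 0.59 (SE 0.08, adjusted p = 0.119) was closest to the threshold of the genes listed here. Without control 1, its highest control, limma called it (log2 change 0.66, SE 0.04, adjusted p = 0.0711), the single call among these lists when each liver was left out in turn.

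Transcription of the members is controlled largely by NRF1, by GABP (an ETS factor, also called NRF2) and by coactivators of the PGC-1 family. Of 16 regulators, 1 was nominally higher (6.25%) and none nominally lower. This was Ppargc1a, which encodes the coactivator PGC-1alpha, with log2 values of 8.91, 9.18, 8.49 and 8.81 in the controls and of 9.84, 9.25 and 10.28 in the Trpm6-deficient livers. The groups did not overlap, Trpm6-deficient 2 lay just above control 2, and the log2 change was 0.94 (SE 0.27, adjusted p = 0.562). It was highest in Trpm6-deficient 3, whereas the mean of the members was highest in Trpm6-deficient 1. Nrf1 had a log2 change of 0.08, Gabpa, the DNA-binding subunit of GABP, one of -0.14, Tfam, the packaging factor of mitochondrial DNA, one of 0.10, and Ppara, the fatty acid receptor of liver, one of -0.42 (adjusted p = 0.754).

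The promoters were read as windows from 250 bases before to 50 bases after the RefSeq gene start (GRCm38.p6), which were matched for 73 of the 89 members. The NRF1 core GCATGCGC, on either strand, was found in 12 members (16.4%), against 3.94% of 17492 protein-coding genes, and its 10-base palindrome GCGCATGCGC, which holds the core on both strands, in 7 members (9.59%, against 1.47%). The ETS core CCGGAAG was found in 18 members (24.7%, against 12.9%), and TATAAA in 8 (11.0%, against 14.8%). The median log2 change was 0.11 in the 12 members with the NRF1 core and 0.07 in the 61 without, and 0.01 in the 18 with the ETS core and 0.08 in the 55 without. Nominally higher or lower were 4 of the 12 and 10 of the 61, and 4 of the 18 and 10 of the 55. With the NRF1 core, Atp5g2, Atp5k and Ndufaf5 were higher and Cox6a1 was lower. With the ETS core, Atp5h and Atp5k were higher and Ndufs3 and Cox6a1 were lower. Of all probe sets 3.85% were nominally higher and 3.03% nominally lower, and of the bright ones 6.92% and 6.39%. The motif shares describe these windows only, and a match is not a shown binding site.

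The 170 bases before the start are given, 5′ to 3′ on the strand of the gene, for 3 nominally higher members of complex V, for the nominally lower Ndufs3 and for the members with the lowest and the highest log2 change. They were chosen after their values were seen. Capitals mark the NRF1 core or palindrome and the ETS core on either strand. Atp5g2 (chr15:102671048-102671217, minus strand) and Atp5k (chr5:108434400-108434569, minus strand) hold the NRF1 palindrome.
Atp5g2: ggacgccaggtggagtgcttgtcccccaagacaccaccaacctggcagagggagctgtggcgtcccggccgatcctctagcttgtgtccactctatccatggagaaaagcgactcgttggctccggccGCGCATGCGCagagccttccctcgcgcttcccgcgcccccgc
Atp5k: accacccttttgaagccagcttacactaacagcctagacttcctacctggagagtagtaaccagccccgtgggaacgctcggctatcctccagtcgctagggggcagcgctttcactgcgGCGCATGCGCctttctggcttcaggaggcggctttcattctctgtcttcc
Atp5h (chr11:115419920-115420089, minus strand), with the lowest p of all members, holds the ETS core and no NRF1 core, as does Ndufs3 (chr2:90904722-90904891, minus strand), which was nominally lower.
Atp5h: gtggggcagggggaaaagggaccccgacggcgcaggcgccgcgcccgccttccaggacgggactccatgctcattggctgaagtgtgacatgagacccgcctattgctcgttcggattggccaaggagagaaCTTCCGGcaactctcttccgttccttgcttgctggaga
Ndufs3: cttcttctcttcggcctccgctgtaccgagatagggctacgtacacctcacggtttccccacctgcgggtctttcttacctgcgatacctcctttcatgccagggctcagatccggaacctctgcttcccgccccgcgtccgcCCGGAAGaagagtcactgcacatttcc
Cox6a1 (chr5:115348959-115349128, minus strand), with the lowest log2 change of all members, holds the NRF1 palindrome and the ETS core, and Cox7a1 (chr7:30184001-30184170, plus strand), with the highest, holds neither.
Cox6a1: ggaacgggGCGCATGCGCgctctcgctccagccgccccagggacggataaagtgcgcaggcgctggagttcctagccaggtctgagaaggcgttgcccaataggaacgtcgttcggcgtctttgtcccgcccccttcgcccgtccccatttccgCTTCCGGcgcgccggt
Cox7a1: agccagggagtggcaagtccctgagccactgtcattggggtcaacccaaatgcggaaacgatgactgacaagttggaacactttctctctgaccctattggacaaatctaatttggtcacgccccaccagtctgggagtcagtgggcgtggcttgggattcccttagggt
The 7 members with the palindrome had log2 changes of 0.44 (Atp5k), 0.38 (Atp5g2), 0.19 (Ndufaf5), 0.14 (Uqcrc1), 0.11 (Ndufa11), -0.13 (Ndufaf4) and -0.31 (Cox6a1). A link between the motifs and the changes was not tested.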

How the data were processed

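Per the labels, liver RNA of 4 control and 3 Trpm6-deficient mice was hybridised to Affymetrix arrays, 1 per mouse. The authors made log2 values for each probe set by RMA, which covers background, normalization between arrays and summary of probes (Affymetrix Expression Console 1.4.0), and deposited 35556 of them per array. Symbols came from the platform annotation (21789 probe sets with 1 symbol, 1621 with several, 12146 with none). The deposited log2 values were fitted with limma 3.58.1 (lmFit, eBayes, R 4.3.3), without a covariate, and adjusted by Benjamini-Hochberg over all probe sets, with calls at 0.1 or less as in the study's methods. The fit was tested on simulated data. The members and lists were chosen with earlier results of these data known. Named were members with p before adjustment of 0.05 or below, the highest and lowest change of each complex, core members, tissue isoforms and the brightest and dimmest probe set. Another 13 members (such as Atp5g3, Atp5md and Cox7a2l) were named after their values were seen. The methods name no separate litters or extractions. With 1 array per mouse, p-values measure the spread between these mice together with that of RNA handling and arrays. The number of arrays limits precision. Alternatives left out each array and altered scaling, filter, weights, covariate and probe set choice. Promoter windows came from RefSeq (GRCm38.p6).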

Additional observations from a re-analysis of the deposited data

Results flagged for a closer look

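In 2 of 44 groups of 4 control livers (37 members named by rule and 7 class means), 1 liver stood apart from the other 3, where chance gives about 1 in 20. These were Atp5b and Cox8c. In 3 of the 13 members named after their values were seen (Atp5md, Cox7a2l and Ndufs7) 1 liver also stood apart, and no chance rate applies to these. Atp5md, a membrane subunit of ATP synthase, was highest in control 1 at 12.69, with the other controls at 11.52 to 11.69. Cox7a2l, the supercomplex factor, was highest in control 1 at 9.60, with the others at 8.77 to 8.80. In both, Trpm6-deficient 1 was nearly equal to control 1 (12.67 and 9.63). Cox8c, a testis isoform of a complex IV subunit, was highest in control 1 at 6.84, with the others at 6.68 to 6.70. Ndufs7, a core subunit of complex I, was lowest in control 1 at 12.36, with the others at 12.69 to 12.75. Atp5b, the beta subunit of ATP synthase, was lowest in control 3 at 13.50, with the others all at 13.52, a gap near the 2 decimals to which the values are given. No cause was tested for these.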

How the results depend on the processing

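No member was called at an adjusted p of 0.1 or less in any of 16 alternative fits or by the comparison without limma's sharing of variance, and none at 0.05. The lowest adjusted p of a member lay between 0.192 (without Trpm6-deficient 2) and 0.546 (without control 2). Leaving out each liver in turn, 6 to 11 of the 89 members were nominally higher and 0 to 4 nominally lower. Of all 35556 probe sets, 1966 (without control 2) to 2811 (without Trpm6-deficient 1) were nominally higher or lower in these fits. The median log2 change of the factors ranged from -0.12 to 0.11 (0.11 without Trpm6-deficient 3). The count of higher members was 7 without control 1, 6 without control 2 and 7 without Trpm6-deficient 1. The count of lower members was 0 without control 1, 2 or 3 or Trpm6-deficient 3 and 1 without Trpm6-deficient 1. It was also 1 with age as a covariate, 1 with array weights and 1 without limma's sharing of variance. Of all probe sets, 2661, 2353 and 1863 had a p of 0.05 or below in these, in either direction. Without control 1 and Trpm6-deficient 1 together, an alternative chosen after seeing the data, 4 members were nominally higher and 2 nominally lower. The same fit had 2680 of all 35556 probe sets nominally higher or lower. Without overlap, 9 to 20 members lay above and 1 to 6 below when each liver was left out (20 without Trpm6-deficient 2, where 6.29% of all probe sets lay above, and 6 without control 4, where 3.95% lay below), and fewer livers make separation easier. Complex I kept a median above 0 in every fit run, at 0.03 to 0.11. The cause of these shifts was not tested. Of the 50 named members 20 altered their sign under at least 1 alternative. None of the 15 nominally higher or lower members did so. These 15 were picked by their p in the main fit of the same arrays, so their kept sign is no separate support. With the replicate number as a block, 0 members were called, 15 were nominally higher and 3 nominally lower, beside 3297 of all probe sets in either direction. Same-numbered livers correlated in their deviations at 0.335, 0.260 and 0.088, and Trpm6-deficient 3 correlated best with control 4 (0.226), so the numbers were not taken to pair the mice.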
